A study of Homo sapiens with 12 samples.

Results

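The calnexin cycle is the folding and inspection route of glycoproteins in the endoplasmic reticulum (ER), and 10 of its genes are described here in stem cell-derived alpha cells with and without tunicamycin. Members were taken by symbol as CALR, CANX, UGGT1, UGGT2, MOGS, GANAB, PRKCSH, EDEM1, EDEM2 and EDEM3, and all 10 were found among the 28278 symbols of the count table. Alpha cells, the glucagon cells of the pancreatic islet, had been derived from HUES-8, a single established human embryonic stem cell line, so all samples share 1 genetic background. The tunicamycin group (6 samples) had received 5 uM tunicamycin for 48 h, and the DMSO group (6 samples) the solvent for the same time, both in 30 mL bioreactors turned at 40 rpm. Numbers 1 to 6 name biological replicates in each group, with 1 to 3 in sequencing batch 1 and 4 to 6 in batch 2. The labels do not tell whether each replicate was its own differentiation, and p-values cover no more than the spread seen among these 12 samples, which may be partly technical.

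In the cycle, glucosidase I and glucosidase II trim glucoses from a newly attached N-glycan until 1 is left, and the lectins calnexin and calreticulin hold proteins that carry this mark. Removal of the last glucose releases the protein. The UGGT enzymes put a glucose back on proteins that are still misfolded, which returns them to the lectins, while EDEM proteins help to trim mannoses from glycans of proteins that are sent for degradation. Tunicamycin blocks DPAGT1, the enzyme that starts the glycan precursor, so new proteins lack the N-glycans that this route reads. ER stress of this kind activates the unfolded protein response, whose factors ATF6 and XBP1 bind promoters of many chaperone genes.

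Of the 10 members, 7 rose with tunicamycin and 0 fell (edgeR, adjusted p under 0.05), whereas 4.56% of all 17137 genes tested rose and 3.29% fell, 7.84% in all. CALR, CANX, EDEM1 and UGGT1 rose more than 2-fold, as 1.27% of tested genes did, and PRKCSH, UGGT2 and MOGS rose by less. GANAB, EDEM3 and EDEM2 did not pass the test. All 10 members had a higher level with tunicamycin in each of the 6 pairs of samples with the same number, against 10.7% of genes tested. With the sample number as a block all 10 members were called higher, against 8.92% of genes tested higher and 8.4% lower. The median log2 fold change was 0.76 over the members and -0.01 over all genes tested. All 6 tunicamycin samples lay above all 6 DMSO samples for 6 members (CALR, CANX, UGGT1, UGGT2, MOGS and EDEM1), against 2.47% of genes tested, and below them for 0 members, against 1.3%. Together the members took 0.743 ± 0.087% of counts in the tunicamycin group and 0.292 ± 0.037% in the DMSO group (SD, n = 6 each).

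**Figure D1:**
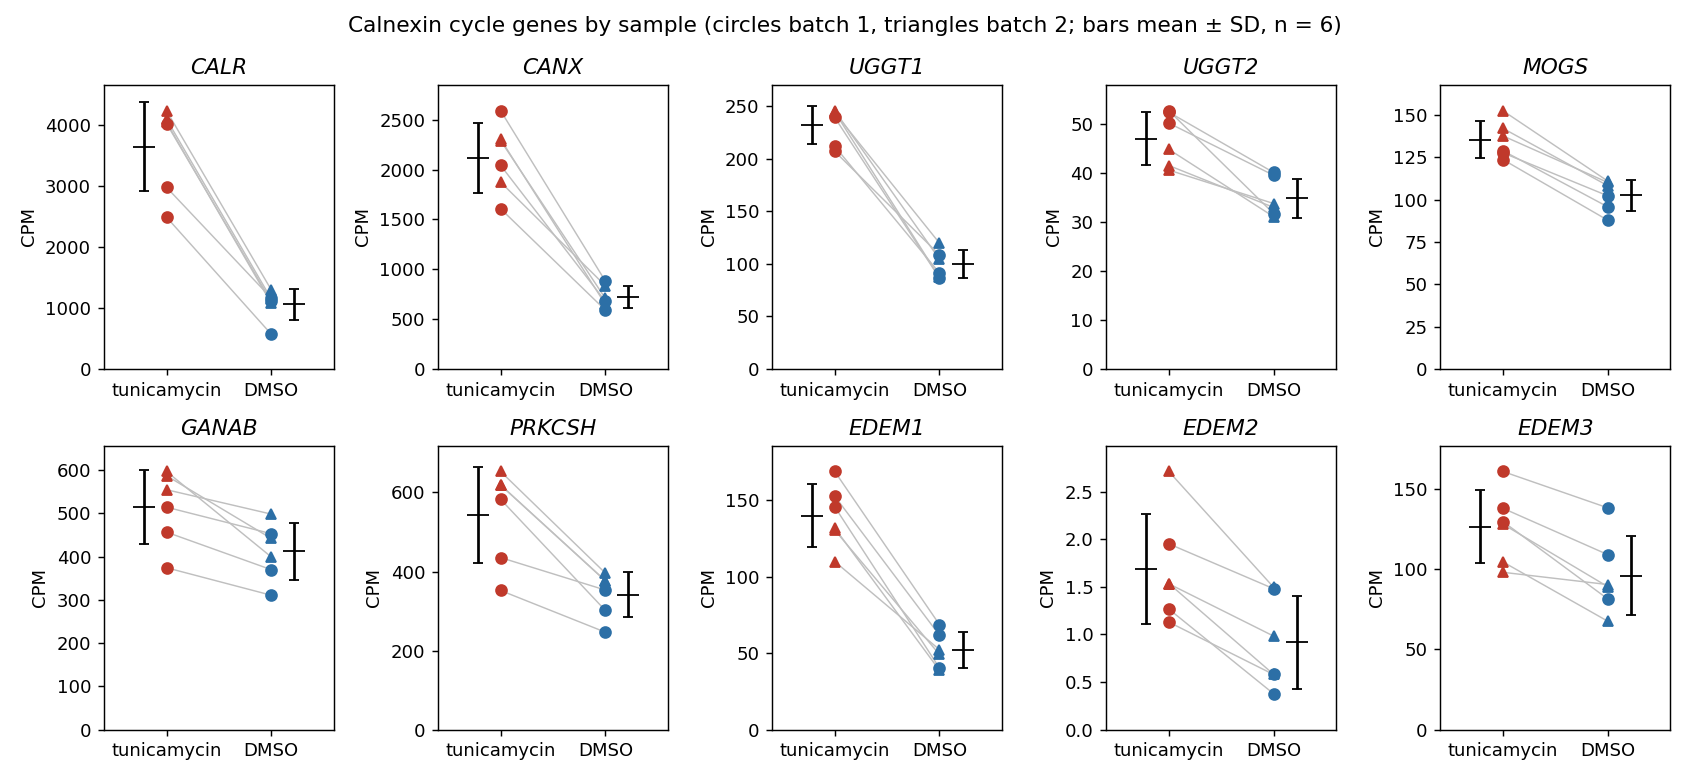
CPM (counts scaled to library size, y axis) of each calnexin cycle gene in tunicamycin and DMSO samples. Grey lines join samples with the same number, circles are batch 1, triangles batch 2, and black bars show mean ± SD (n = 6). All 10 genes are higher with tunicamycin in all 6 pairs, and the groups overlap for GANAB, PRKCSH, EDEM2 and EDEM3.

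The promoters of the 4 members that rose most are shown because 2 of them hold the ER stress response element (ERSE), CCAAT and CCACG with any 9 bases between them, searched on both strands. Windows run from 250 bases before to 50 after a gene's start, from RefSeq (GRCh38.p14), and capitals mark the match.
CALR (chr19:12938359-12938658, plus strand): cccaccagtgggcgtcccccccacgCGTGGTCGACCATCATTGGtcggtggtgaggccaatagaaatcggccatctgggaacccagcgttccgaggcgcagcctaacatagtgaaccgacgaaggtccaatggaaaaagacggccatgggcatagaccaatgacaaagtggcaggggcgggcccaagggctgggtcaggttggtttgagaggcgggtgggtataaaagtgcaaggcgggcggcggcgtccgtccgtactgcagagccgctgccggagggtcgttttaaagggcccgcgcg
CANX (chr5:179698679-179698978, plus strand): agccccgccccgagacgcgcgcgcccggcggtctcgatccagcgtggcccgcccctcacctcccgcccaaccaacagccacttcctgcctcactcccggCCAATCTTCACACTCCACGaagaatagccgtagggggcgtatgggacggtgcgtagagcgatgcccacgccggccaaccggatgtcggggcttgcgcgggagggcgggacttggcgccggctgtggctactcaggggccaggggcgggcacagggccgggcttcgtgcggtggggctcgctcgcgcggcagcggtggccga
UGGT1 (chr2:128090950-128091249, plus strand): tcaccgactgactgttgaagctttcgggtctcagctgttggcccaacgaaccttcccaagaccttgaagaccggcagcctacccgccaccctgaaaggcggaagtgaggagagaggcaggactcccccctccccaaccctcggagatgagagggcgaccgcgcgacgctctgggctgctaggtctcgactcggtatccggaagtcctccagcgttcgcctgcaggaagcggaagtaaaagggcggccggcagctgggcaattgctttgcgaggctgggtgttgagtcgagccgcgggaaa
EDEM1 (chr3:5187457-5187756, plus strand): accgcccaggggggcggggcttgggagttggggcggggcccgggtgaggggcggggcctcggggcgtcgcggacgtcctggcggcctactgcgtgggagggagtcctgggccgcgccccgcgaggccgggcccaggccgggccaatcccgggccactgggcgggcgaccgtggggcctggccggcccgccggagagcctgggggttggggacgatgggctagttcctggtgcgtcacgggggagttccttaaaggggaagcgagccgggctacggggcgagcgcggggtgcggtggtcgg
A window was listed for 9 members, and MOGS was not matched. Of all 35116 windows, 0.0769% held the element. CALR carried it on the minus strand, from 225 to 207 bases before the start, and the CANX window shown on the plus strand, from 151 to 133 bases before the start. It lay in 3 overlapping windows of the 4 listed for CANX. Those 3 windows lie inside the span of the gene in RefSeq (179678656 to 179731641) and in GENCODE. The other 7 members with a window held no match to these letters. No window of a member matched ERSE-II (ATTGG and CCACG with any 1 base between them), the core of the XBP1 site (TGACGTGG) or the ATF4 composite element (TGATGNAA), which lay in 0.0541%, 0.729% and 3.62% of all windows. These matches describe letters and are not shown binding sites.

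Alpha cell markers were abundant in both groups, given as CPM, a gene's share of the counts on library sizes scaled by TMM. GCG, which encodes glucagon, ranged from 44759 to 68819 CPM with tunicamycin and from 61679 to 91983 CPM with DMSO. Totals per sample ran from 20252508 to 25131093 counts with tunicamycin and from 17523442 to 28872269 with DMSO. Of 13 alpha cell markers 1 fell, CRYBA2, and none rose, where 3.29% of all genes tested fell and 4.56% rose. The median log2 fold change of the 13 was -0.17, against -0.01 over all genes tested, and 3 of the 13 had a positive value. GCG was lower with tunicamycin in 6 of 6 pairs but did not pass (-0.39 ± 0.16, edgeR adjusted p = 0.176). Marker sums of some other cells differed between the groups. The summed level of 10 mesenchymal markers ranged from 89.1 to 633 CPM (median 237) with tunicamycin and from 172 to 1527 CPM (median 447) with DMSO. None of the 10 passed the test, while 8 were called lower with the sample number as a block, against 8.4% of genes tested. The summed level of 8 ductal and acinar markers ranged from 145 to 318 CPM with tunicamycin and from 378 to 544 CPM with DMSO, with 5 of them lower in the test. That of 7 liver and gut markers ranged from 190 to 314 CPM with tunicamycin and from 346 to 471 CPM with DMSO, also with 5 lower. That of 8 beta cell markers ranged from 270 to 489 CPM with tunicamycin and from 337 to 753 CPM with DMSO, with 4 lower of 7 tested. Delta, PP and enterochromaffin cell markers, 8 in all, summed to between 1655 and 3134 CPM (median 2271) with tunicamycin. With DMSO they summed to between 1285 and 5448 CPM (median 1786), and 1 of the 8 was lower in the test. Heart muscle markers summed to between 11.6 and 1145 CPM with tunicamycin and between 10.3 and 2196 CPM with DMSO, and pluripotency markers to at most 4.70 CPM. None of these markers was at 0 in all samples. In bulk RNA, fewer cells of a type and less RNA per cell cannot be told apart. With the mean of the mesenchymal markers as a covariate, the same 7 members were called higher, among 552 of 17137 genes tested. The median log2 fold change of the members was then 0.52, against 0.76 without this covariate. The part of the other cell types in the results for the members was not tested.

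The lectins were the most abundant members and had the largest estimated fold changes. On the log2 scale CANX (1.55 ± 0.14 SE) lay close to EDEM1 (1.43 ± 0.13 SE), and a difference between them was not tested. CALR encodes calreticulin, the soluble lectin of the ER lumen (chromosome 19, 12938578 to 12944489, plus strand, GRCh38, GENCODE release 29). It stood at 2485 CPM in the lowest, 4030 CPM at the median and 4228 CPM in the highest tunicamycin sample, against 568, 1127 and 1295 CPM in DMSO samples. No tunicamycin sample came near the DMSO range, and DMSO 3 was far below the other DMSO samples. CALR rose 3.43-fold (log2 fold change 1.78 ± 0.17 SE, adjusted p = 2.66e-05), the 66th largest fold change of 17137, with 1.75 in batch 1 and 1.81 in batch 2. Without DMSO 3 the log2 fold change was 1.66. In GENCODE a gene on the other strand shares exonic bases with each of CALR, CANX, PRKCSH and EDEM1. The shared bases number 270 of 2714 for CALR, 150 of 6235 for CANX, 64 of 5166 for PRKCSH and 653 of 6758 for EDEM1. Without a stated strand setting, reads from the pair in these bases cannot be told apart. For CANX the other gene is CBY3, whose row held 185 counts over all 12 samples, against 380065 for CANX. Counts of the other-strand genes of CALR, PRKCSH and EDEM1 were not examined. CANX encodes calnexin, the membrane-bound lectin (chromosome 5, 179678628 to 179730925, plus strand). It had 1607, 2167 and 2591 CPM in the lowest, median and highest tunicamycin sample, against 590, 693 and 882 CPM with DMSO. Here too the groups were well apart, with samples numbered 3 lowest in both groups and samples numbered 2 highest. CANX rose 2.93-fold (1.55 ± 0.14, adjusted p = 1.42e-05), with 1.55 in batch 1 and 1.56 in batch 2.

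Both reglucosylating enzymes rose, UGGT1 by more than UGGT2. UGGT1, the folding sensor of the cycle (chromosome 2, 128091200 to 128195677, plus strand), had 207, 242 and 246 CPM in the lowest, median and highest tunicamycin sample, against 86.6, 97.9 and 120 CPM with DMSO. It varied little within the tunicamycin group, with an SD of 0.11 on the log2 scale. UGGT1 rose 2.33-fold (1.22 ± 0.10, adjusted p = 3.71e-06), with 1.21 in batch 1 and 1.24 in batch 2. UGGT2, its less abundant homologue (chromosome 13, 95801580 to 96053482, minus strand), had 40.6, 47.5 and 52.8 CPM with tunicamycin, against 31.1, 33.4 and 40.1 CPM with DMSO. The groups nearly touched, because tunicamycin 6 stood just above DMSO 3. UGGT2 rose 1.35-fold (0.43 ± 0.08, adjusted p = 0.00608), with 0.49 in batch 1 and 0.38 in batch 2. This call was lost without both samples numbered 4 (adjusted p = 0.0520).

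Of the 3 glucosidase genes, MOGS and PRKCSH rose and GANAB did not pass. MOGS encodes glucosidase I, which removes the outermost glucose (chromosome 2, 74461057 to 74465410, minus strand). It had 124, 133 and 153 CPM in the lowest, median and highest tunicamycin sample, against 87.9, 105 and 111 CPM with DMSO, with no overlap. MOGS rose 1.32-fold (0.40 ± 0.07, adjusted p = 0.00362), with 0.42 in batch 1 and 0.39 in batch 2. Glucosidase II is a dimer of a catalytic subunit, encoded by GANAB (chromosome 11, 62624826 to 62646726, minus strand), and a subunit that retains it in the ER, encoded by PRKCSH (chromosome 19, 11435288 to 11450968, plus strand). PRKCSH had 352, 601 and 653 CPM with tunicamycin, against 247, 365 and 396 CPM with DMSO, and tunicamycin 3 lay within the DMSO range. It rose 1.58-fold (0.66 ± 0.12, adjusted p = 0.00480), with 0.61 in batch 1 and 0.72 in batch 2. GANAB had 374, 535 and 597 CPM with tunicamycin, against 311, 421 and 498 CPM with DMSO, and the groups overlapped. GANAB did not pass (0.31 ± 0.11, adjusted p = 0.122, 0.26 in batch 1 and 0.38 in batch 2), but passed with the block (0.32 ± 0.08, adjusted p = 0.0208) and without DMSO 2 (0.39, adjusted p = 0.0471).

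Among the EDEM genes, EDEM1 was the one that passed. EDEM1, which passes misfolded glycoproteins on to ER-associated degradation (chromosome 3, 5187646 to 5219957, plus strand), had 110, 139 and 169 CPM in the lowest, median and highest tunicamycin sample, against 38.8, 50.7 and 68.7 CPM with DMSO. Even the lowest tunicamycin sample, number 6, was well above the highest DMSO sample. EDEM1 rose 2.70-fold (1.43 ± 0.13, adjusted p = 1.08e-05), with 1.46 in batch 1 and 1.41 in batch 2. EDEM3 (chromosome 1, 184690231 to 184754913, minus strand) encodes another mannosidase-like protein of the family. It had 97.9, 129 and 161 CPM with tunicamycin, against 67.5, 89.7 and 138 CPM with DMSO. DMSO 2 was above 5 of the 6 tunicamycin samples. EDEM3 did not pass (0.40 ± 0.13, adjusted p = 0.0822, 0.39 in batch 1 and 0.42 in batch 2), but passed with the block (0.42 ± 0.09, adjusted p = 0.00769). It also passed with DESeq2 (adjusted p = 0.0398), without DMSO 2 (0.49, adjusted p = 0.0286) and without both samples numbered 2 (0.45, adjusted p = 0.0385). With the mesenchymal mean as a covariate its log2 fold change was 0.22.

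EDEM2 could not be measured well. Its product starts mannose trimming of misfolded glycoproteins, and its row held only 11 to 56 counts per sample. RefSeq (GRCh38.p14) lists a readthrough gene, MMP24-AS1-EDEM2 (chromosome 20, 35115364 to 35278122), across the whole EDEM2 gene (35115364 to 35147336). That gene has its own row with 6 to 20 counts per sample. No source used here says how reads that lie in both genes were counted, so the EDEM2 level is uncertain. EDEM2 had 1.13, 1.53 and 2.71 CPM in the lowest, median and highest tunicamycin sample, against 0.377, 0.782 and 1.50 CPM with DMSO. EDEM2 did not pass (0.86 ± 0.37, adjusted p = 0.189, 0.83 in batch 1 and 0.91 in batch 2), but passed with the block (0.97 ± 0.28, adjusted p = 0.0365). With the mesenchymal mean as a covariate its log2 fold change was 0.41.

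**Figure D2:**
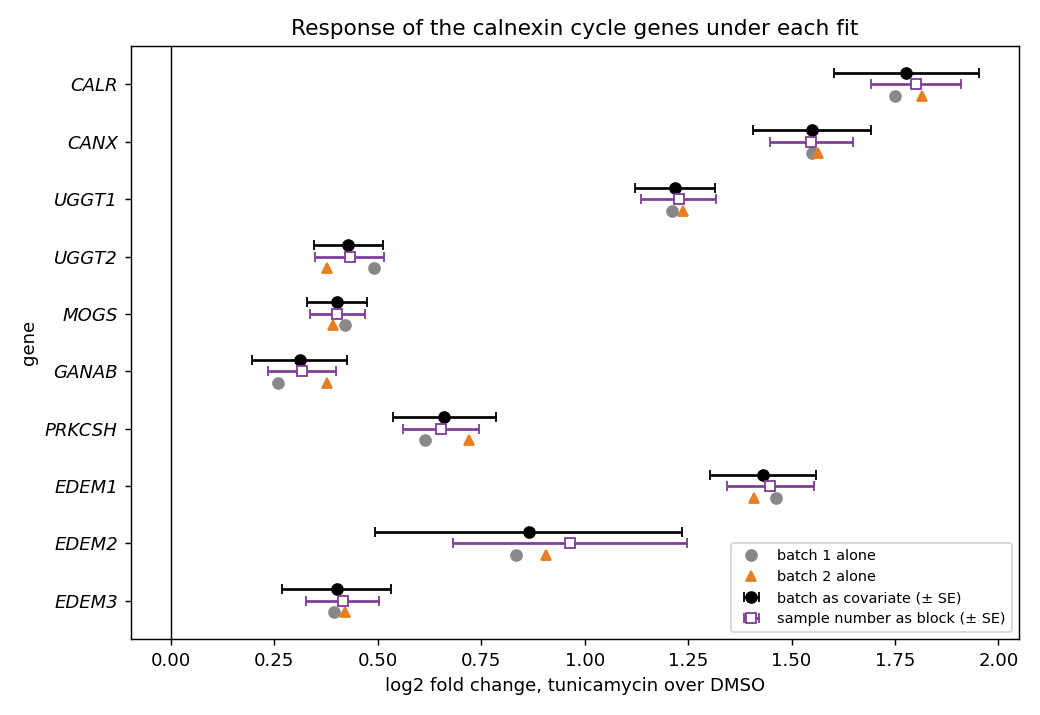
Log2 fold change, tunicamycin over DMSO, of each calnexin cycle gene with batch as a covariate (black, ± SE), with sample number as a block (purple squares, ± SE) and in each batch alone (grey circles batch 1, orange triangles batch 2). CALR, CANX, EDEM1 and UGGT1 lie beyond 1 in every fit shown, and every value lies above 0.

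No difference in response between batches was detected, but the test for it was conservative. In each batch alone, with 3 samples a group, UGGT1 and EDEM1 passed in batch 1 and CALR, CANX, UGGT1, PRKCSH and EDEM1 in batch 2. Over all genes 57 of 16940 tested passed in batch 1 and 654 of 16634 in batch 2. In a test of the interaction of treatment and batch 0 of 10 members passed, with the smallest unadjusted p at 0.563 and differences between batches from -0.10 to 0.13 on the log2 scale. Over all genes 0 passed with edgeR and 0 with limma-voom. With edgeR 169 of 17137 genes tested had an unadjusted p under 0.05. Without any true difference a share of about 0.05 would reach this by chance, so the test was conservative. The fit did not use the sample number, although same-number samples correlated at 0.50, 0.58 and 0.52 in batch 1. That 0 members passed therefore does not show that the batches responded alike.

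Levels of different genes were compared as CPM per kilobase of exon in GENCODE release 29. The annotation used for counting is not given, so these levels are approximate. With tunicamycin CALR stood highest at 1341 ± 267, followed by CANX at 340 ± 56, and with DMSO CALR stood at 390 ± 93 and CANX at 116 ± 18, where CANX overlapped GANAB (SD, n = 6). PRKCSH and GANAB came next and their ranges overlapped, at 105 ± 23 and 102 ± 17 with tunicamycin and 66.2 ± 11.0 and 82.0 ± 13.3 with DMSO. MOGS, at 37.8 ± 3.0 with tunicamycin and 28.6 ± 2.6 with DMSO, stood alone in the fifth place in both groups. EDEM1 and UGGT1 did not differ beyond their spread, at 20.7 ± 3.0 and 20.5 ± 1.6 with tunicamycin and 7.67 ± 1.74 and 8.78 ± 1.19 with DMSO. EDEM3 followed at 16.2 ± 2.9 with tunicamycin but had a higher mean than both at 12.3 ± 3.2 with DMSO, and its range overlapped that of UGGT1 in both groups. UGGT2 was lower, at 5.81 ± 0.67 with tunicamycin and 4.31 ± 0.49 with DMSO. EDEM2 was lowest, at 0.880 ± 0.300 with tunicamycin and 0.478 ± 0.253 with DMSO, but its level is uncertain because of the readthrough gene. CALR and CANX made up 76.6 ± 1.5% of all counts of the members with tunicamycin and 60.6 ± 3.2% with DMSO (SD, n = 6 each), and these ranges did not overlap.

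Count ratios of 2 members within a sample, which need no scaling of libraries, tested whether members of like role moved by the same amount. The counts were not corrected for gene length, so these ratios are not ratios of the levels per kilobase. The 8 ratios were compared by a two-sided exact permutation test within batches, where the smallest possible p is 0.005, with Benjamini-Hochberg adjustment over the 8. There were 5.01 ± 0.89 UGGT1 counts per UGGT2 count with tunicamycin and 2.88 ± 0.48 with DMSO. The log2 ratio was higher by 0.80 with tunicamycin, in 6 of 6 pairs and without overlap (exact permutation p = 0.005, adjusted p = 0.0200). EDEM1 counts per EDEM3 count averaged 1.12 ± 0.11 with tunicamycin and 0.553 ± 0.114 with DMSO, a difference of 1.03 on the log2 scale, again in 6 of 6 pairs (exact permutation p = 0.005, adjusted p = 0.0200). For both, the differences were alike in the batches, at 0.72 and 0.87 for UGGT1 over UGGT2 and at 1.08 and 0.99 for EDEM1 over EDEM3. In glucosidase II the ratio of GANAB to PRKCSH counts was 0.959 ± 0.079 with tunicamycin and 1.22 ± 0.18 with DMSO. This log2 ratio was lower by 0.34, in 5 of 6 pairs and with overlap between the groups (exact permutation p = 0.015, adjusted p = 0.0400). It did not pass without any 1 of tunicamycin 2, 4, 5 or 6, DMSO 2 or DMSO 3 (adjusted p from 0.0533 to 0.0800). With the number as a block, in an exact sign-flip permutation test of same-number differences whose smallest possible p is 0.03125, it did not pass either (p = 0.0625, adjusted p = 0.1). UGGT1/UGGT2, EDEM1/EDEM3 and EDEM1/EDEM2 reached that smallest p and did not pass after adjustment (exact permutation, adjusted p = 0.0833 each). The ratio of CALR to CANX counts was 1.72 ± 0.29 with tunicamycin and 1.46 ± 0.30 with DMSO, which did not pass (exact permutation p = 0.085, adjusted p = 0.153). The other 4 ratios did not pass either, with adjusted p from 0.153 to 0.445.

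**Figure D3:**
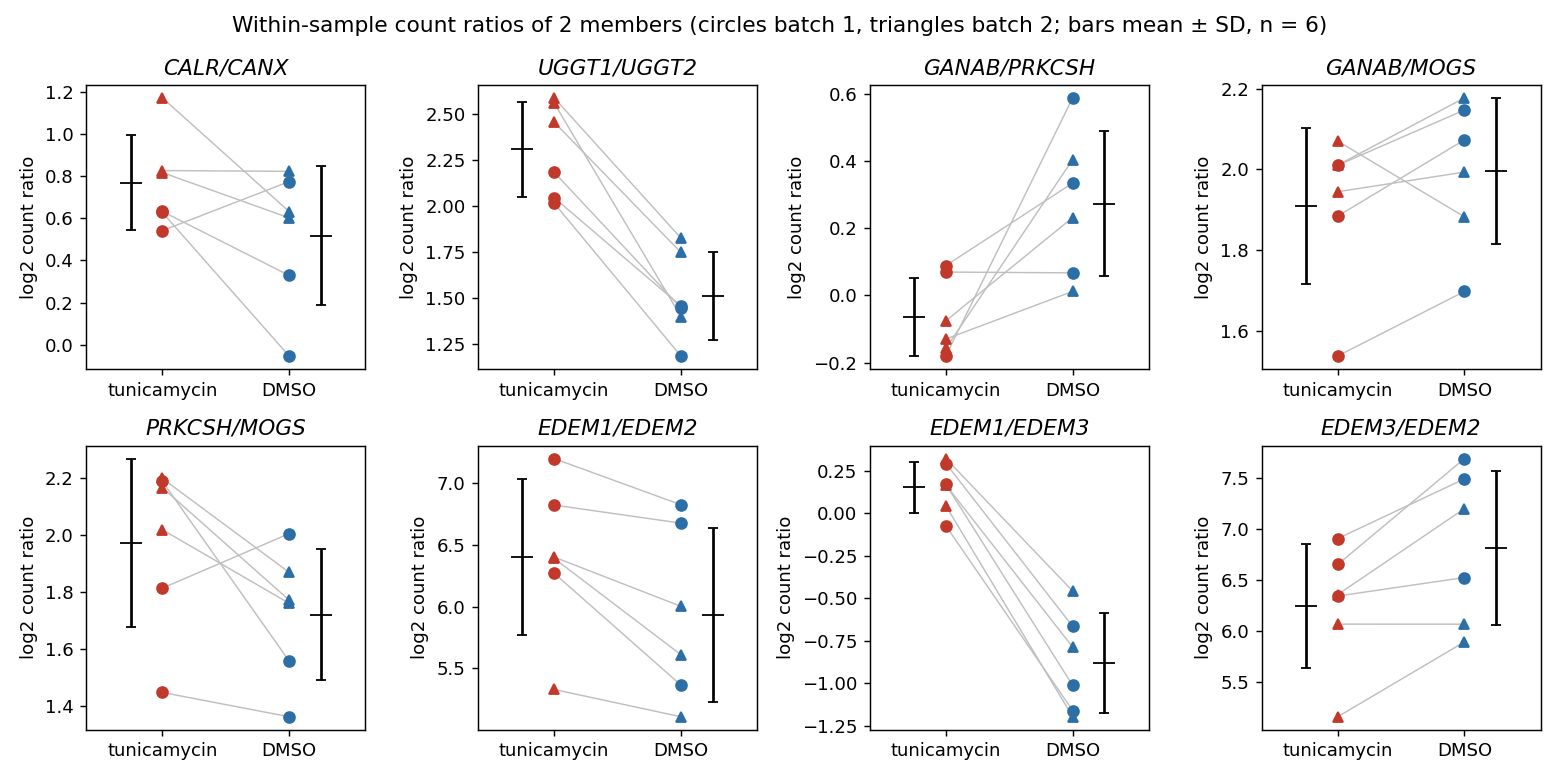
Log2 ratio of the counts of 2 calnexin cycle genes within each sample, tunicamycin left and DMSO right in each panel. Grey lines join samples with the same number, circles are batch 1, triangles batch 2, and bars show mean ± SD (n = 6). The groups are apart for UGGT1/UGGT2 and EDEM1/EDEM3, and overlap in the other 6 panels.

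Other genes of glycan quality control rose in part. Of a list of 25, 24 could be tested, and 12 rose and 1 fell, with a median log2 fold change of 0.35, where 4.56% of all genes tested rose and 3.29% fell. CALR3, a testis relative of calreticulin, was not tested at 0 to 8 counts per sample. PDIA3, the disulfide isomerase ERp57 that works on proteins held by both lectins, averaged 1772 ± 242 CPM with tunicamycin and 590 ± 82 CPM with DMSO (1.59 ± 0.13, adjusted p = 4.47e-06). PPIB, a prolyl isomerase that binds the lectins, averaged 416 ± 69 CPM with tunicamycin and 177 ± 36 CPM with DMSO (1.22 ± 0.14, adjusted p = 0.000125). LMAN1, a cargo lectin of the path to the Golgi, and MLEC, which encodes malectin, a lectin for glycans with 2 glucoses, rose by 0.96 and 0.80 on the log2 scale (adjusted p = 0.000167 and 0.000133). OS9 and ERLEC1, lectins that read trimmed mannoses in degradation, were picked with their values known and rose by 0.84 each. The gene that fell, likewise picked with its value known, was the mannosidase gene MAN1C1, at 15.1 ± 2.3 CPM with tunicamycin and 22.5 ± 3.2 CPM with DMSO (-0.58 ± 0.13, adjusted p = 0.0169). It was not called without both samples numbered 4 or both numbered 5.

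Glucoses that the glucosidases remove are placed on the precursor by ALG enzymes. Of 6 genes, DPAGT1 and the ALG genes of glucose addition, 3 rose and 0 fell, with a median of 0.47, against the same 4.56% and 3.29% of all genes tested. ALG5, which makes the glucose donor, averaged 69.1 ± 3.0 CPM with tunicamycin and 26.1 ± 3.1 CPM with DMSO (1.40 ± 0.09, adjusted p = 7.77e-07). DPAGT1, the drug's target, averaged 73.3 ± 11.7 CPM with tunicamycin and 35.9 ± 6.0 CPM with DMSO (1.02 ± 0.14, adjusted p = 0.000360). ALG10B, a glucosyltransferase of the last glucose, was called (0.45 ± 0.12, adjusted p = 0.0292), but the call was lost in 16 of 30 alternative fits. Its counts are uncertain because ALG10 is a near-identical copy.

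**Figure D4:**
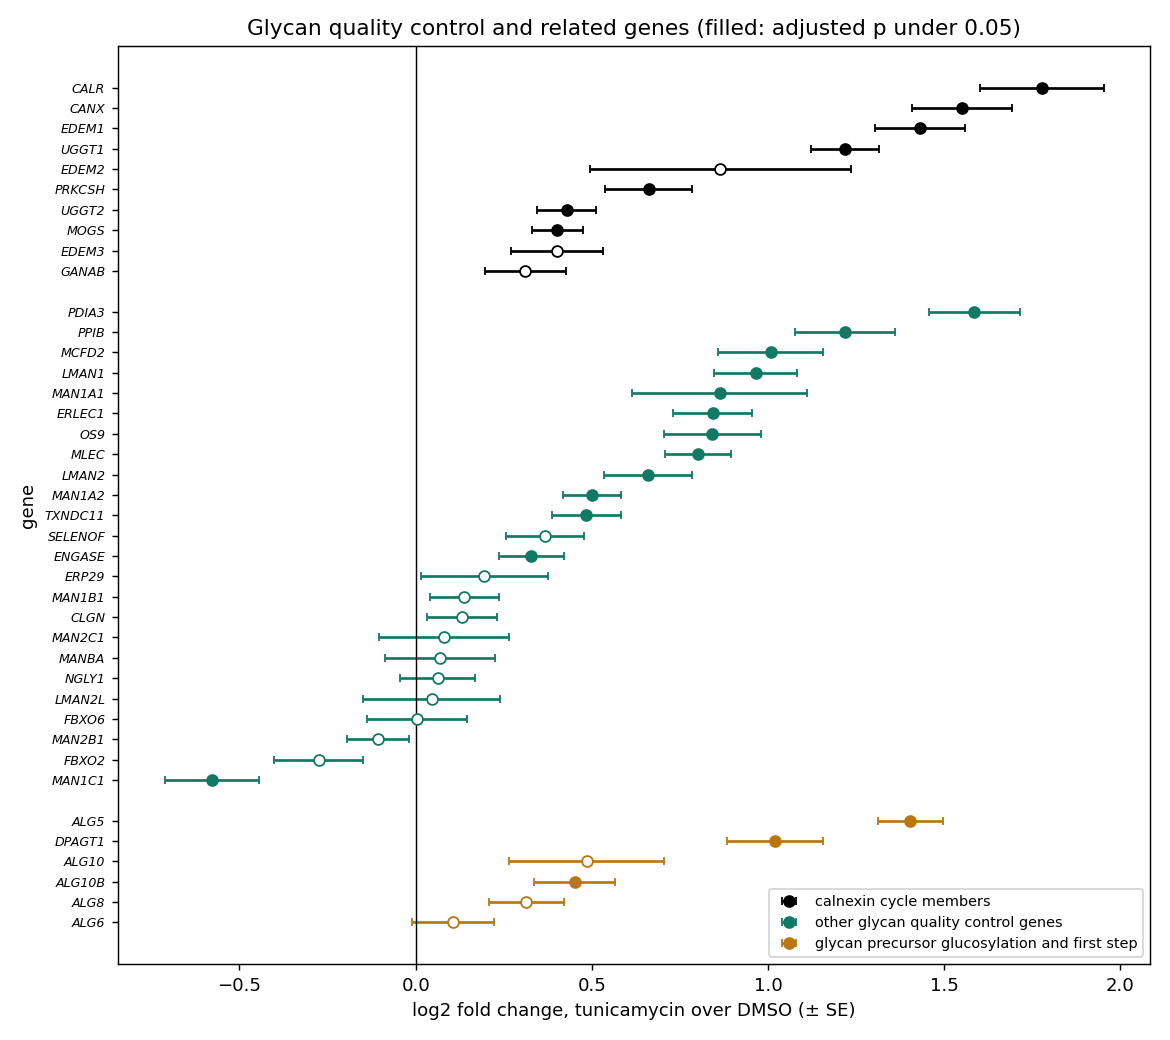
Log2 fold change, tunicamycin over DMSO (± SE), of the calnexin cycle genes (black), other glycan quality control genes (green) and genes of precursor glucosylation with DPAGT1 (orange), filled where the adjusted p was under 0.05. PDIA3, PPIB, MCFD2, ALG5 and DPAGT1 lie beyond 1 like the 4 calnexin cycle genes that rose most, and MAN1C1 is the filled point below 0.

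The genes whose profile over the 12 samples was most like the mean profile of the members were ATG13, PDIA6, SEC61A1, MAGT1 and HYOU1. Likeness was the root mean square difference of standardized log2 CPM among 14041 candidate genes, and ran from 0.143 SD units for ATG13 to 0.172 for HYOU1. Among the members themselves it ran from 0.160 for CANX to 0.807 for EDEM3. HYOU1, an ER chaperone, averaged 1596 ± 328 CPM with tunicamycin and 297 ± 88 CPM with DMSO. ATG13, an autophagy gene, averaged 129 ± 13 CPM with tunicamycin and 73.8 ± 8.1 CPM with DMSO.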

How the data were processed

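RNA was sequenced in bulk from 6 tunicamycin and 6 DMSO samples. The authors deposited raw read counts, whole numbers without normalization, for 28278 gene symbols. The tools named per the submitters' processing notes are HISAT2 2.1.0, featureCounts 2.0.6 and cutadapt 4.4, and the build is GRCh38. For the annotation and the strand setting, no value is given in the sources used here, which leaves overlapping and antisense genes uncertain. No samples of a group were as close as sampling noise (chi-square per gene of 10.9 or more), and all 12 were kept.

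filterByExpr of edgeR 4.0.16 in R 4.3.3 kept 17137 genes and removed 11141. CPM used library sizes multiplied by TMM factors. edgeR's quasi-likelihood test used batch as a covariate, with two-sided p-values and Benjamini-Hochberg adjustment over all genes tested at a threshold of 0.05. Ratios used counts with 0.5 added. Alternatives changed scaling, filter, tool (DESeq2 1.42.0, limma 3.58.1), covariates and samples. The edgeR fit was tested on simulated data. Members, lists and tests were chosen with earlier results of these data known. Named were all members, up to 4 called genes with the smallest adjusted p of each other list, DPAGT1, and the 5 genes most alike.

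Numbers were taken to pair samples: deviations of same-number samples from group and batch means correlated over genes at 0.50, 0.58, 0.52, 0.12, 0.18 and 0.18 for numbers 1 to 6, although numbers 4 and 5, in batch 2, correlated more with another number (0.20 and 0.27). What a number marks is not stated in the labels, and the block was kept as an alternative.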

Additional observations from a re-analysis of the deposited data

Results flagged for a closer look

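Of 60 groups of 6 values examined for a sample far from the others, 2 were flagged, and chance flags about 1 in 20. CALR stood at 568 CPM in DMSO 3, against 1074 CPM in the next lowest DMSO sample. The log2 ratio of GANAB to MOGS was 1.54 in tunicamycin 3, against 1.88 in the next lowest tunicamycin sample. In samples numbered 3 some members were low: 5 members had their lowest tunicamycin value in tunicamycin 3 and 4 their lowest DMSO value in DMSO 3, among them CALR, CANX, GANAB and PRKCSH in both. Others were high there, with EDEM1 highest of its group in both samples and UGGT2 in DMSO 3. What set these samples apart was not tested.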

How the results depend on the processing

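The members and the 7 genes named by rule from the other lists kept their direction in all 30 alternative fits. EDEM1, UGGT1 and ALG5 passed in each of them. With batch 1 alone 2 members, 0 of the other glycan quality control genes and 1 precursor gene passed, among 57 genes in all (51 higher and 6 lower). In batch 2 alone 654 genes passed (449 higher and 205 lower), and 0 of the other glycan quality control genes fell. With 3 samples a group fewer samples enter each fit. Of all genes, 1344 passed (781 higher, 563 lower), against 2967 with the replicate block (1528 and 1439), 2100 with DESeq2 (1007 lower) and 858 (306 lower) when the mesenchymal mean was added as a covariate. The block changed the calls of GANAB, EDEM2 and EDEM3 and of no other member. Leaving out 1 sample, or both of a number, gave 564 to 1444 genes (391 to 855 higher, 173 to 603 lower), the fewest without both numbered 4. It gave 6 to 9 members, 2 to 3 precursor genes and 0 to 1 lower genes of the other list.

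A sign-flip test of same-number differences, with the number as a block, has by construction the same mean differences (0.80 for UGGT1/UGGT2, 1.03 for EDEM1/EDEM3, -0.34 for GANAB/PRKCSH), with adjusted p = 0.0833, 0.0833 and 0.1. UGGT1/UGGT2, EDEM1/EDEM3 and EDEM1/EDEM2 were at its smallest possible p of 0.03125, and GANAB/PRKCSH was above it at 0.0625. In fits without samples, UGGT1/UGGT2 ran from 0.72 to 0.86, EDEM1/EDEM3 from 0.97 to 1.12, GANAB/PRKCSH from -0.40 to -0.25, PRKCSH/MOGS from 0.18 to 0.36 (called without tunicamycin 3, adjusted p = 0.0400). UGGT1/UGGT2 and EDEM1/EDEM3 missed the threshold when both samples of number 2, 3, 4, 5 or 6 were left out (adjusted p = 0.0667), where the smallest possible p is 0.0167.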

Other observations

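Genes with the ERSE in a promoter window were also described as a group, a count added after the data were seen. Of 18 such genes tested 13 rose and 1 fell, with a median log2 fold change of 0.91, and without CALR and CANX 11 of 16 rose and 1 fell (median 0.84). They include HSPA5, HSP90B1, PDIA6, CRELD2 and XBP1. The element was defined on promoters of ER chaperone genes, so this is no independent evidence. Of 14 tested genes with ERSE-II 5 rose and 0 fell (median 0.18), among them HERPUD1, HYOU1 and SDF2L1. With the core of the XBP1 site 24 of 148 rose and 2 fell (median 0.15), and with the ATF4 composite element 36 of 382 rose and 20 fell (median 0.02). Of all genes tested 4.56% rose and 3.29% fell.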
